A study of Mus musculus with 15 samples.

Results

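Ccnd1, Myc and 7 further genes that govern the entry of cells into the division cycle were followed in mouse macrophages exposed to mineral particles. They were taken by symbol from the deposited gene table, as the D-type cyclins Ccnd1, Ccnd2 and Ccnd3, their kinases Cdk4 and Cdk6, the pocket protein Rb1, the inhibitors Cdkn1a and Cdkn1b, and the transcription factor Myc. All 9 were present among 10653 genes, on 1 line each, and all 9 were among the 10616 genes tested. The cells were MPI cells, a non-transformed macrophage line of fetal liver origin (C57BL6/J, female) that renews itself in medium with GM-CSF, here 30 ng/ml in every group. They had been exposed for 24 h to riebeckite asbestos at 9 µg/cm², to riebeckite cleavage fragments at 40 µg/cm², to tremolite asbestos at 5 µg/cm² or to tremolite cleavage fragments at 60 µg/cm², or were left untreated, a group that the labels elsewhere call a vehicle control. Asbestos is the habit of long thin fibres, and cleavage fragments are the non-asbestiform particles of the same mineral. The doses were set to equal surface area, so their masses differed. Each of the 5 groups had 3 libraries, 15 in all, and the labels do not say whether these came from separate cultures. The p-values therefore measure the spread between these libraries, which may be technical. In such bulk samples, fewer cells of a type and less RNA per cell cannot be told apart.

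D-type cyclins are made in response to growth factors. They activate CDK4 and CDK6, which phosphorylate the retinoblastoma protein encoded by Rb1 and so release E2F factors to switch on the genes of DNA replication. The proteins p21 and p27, encoded by Cdkn1a and Cdkn1b, bind cyclin and kinase complexes and restrain the later kinase CDK2, and p21 is the best known target of p53. Myc pairs with Max at the E-box CACGTG and raises genes of ribosome production and metabolism, and in macrophages the growth factor receptors induce both Myc and Ccnd1.

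The Ccnd1 gene (ENSMUSG00000070348.5) lies on chromosome 7 at 144929931 to 144939925, minus strand, and Myc (ENSMUSG00000022346.15) on chromosome 15 at 61985391 to 61990374, plus strand, both in GRCm38. The RefSeq promoter table (GRCm38.p6) held entries for 5 of the 9 genes, Ccnd3, Cdk4, Cdk6, Cdkn1a and Cdkn1b. The bases before the start of 3 of them are shown because they hold letters of the Myc E-box or of the p53 site. The letters searched on both strands in the 250 bases before the start were the E-box CACGTG, the GC box GGGCGG, the STAT motif TTCNNNGAA, the AP-1 motif TGANTCA, the E2F forms TTTCGCGC and TTTGGCGC, and the p53 half-site by name. Each sequence runs 5′ to 3′ along the plus strand, and capitals mark the matches. The Cdk4 window is chr10:127063285-127063534, the Cdk6 stretch is chr5:3343643-3343731, which stops where an exon of Cdk6-204 begins, and the Cdkn1a window before the first annotated start is chr17:29090729-29090978.
Cdk4: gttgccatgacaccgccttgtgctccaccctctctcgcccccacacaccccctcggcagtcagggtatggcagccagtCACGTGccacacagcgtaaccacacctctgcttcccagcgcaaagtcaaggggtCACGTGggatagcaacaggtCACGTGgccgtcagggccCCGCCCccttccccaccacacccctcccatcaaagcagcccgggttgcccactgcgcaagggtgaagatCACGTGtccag
Cdk6: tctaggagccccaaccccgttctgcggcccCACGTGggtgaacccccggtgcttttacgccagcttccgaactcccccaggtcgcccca
Cdkn1a: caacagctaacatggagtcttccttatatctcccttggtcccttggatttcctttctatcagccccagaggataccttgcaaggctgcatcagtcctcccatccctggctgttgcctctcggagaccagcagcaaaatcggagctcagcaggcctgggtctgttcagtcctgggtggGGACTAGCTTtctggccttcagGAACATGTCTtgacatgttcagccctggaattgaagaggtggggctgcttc
The Cdk4 window held 4 E-boxes, at 172, 118, 98 and 11 bases before the start, and 1 GC box. An E-box was held by 6.02% of the 32851 promoters of the table, and at least 4 by 7 promoters, or 0.0213%. The Cdk6 stretch held 1 E-box, 220 bases before the start. The Cdkn1a window held matches to the p53 half-site at 73 and 51 bases before the start, a motif found in 7.13% of promoters. Full sites were sought only as 2 exact half-sites with no gap, which 3 promoters of the table (0.00913%) held, and the window held none. The bases that directly follow the match at 51 depart from the half-site only in their first base, so they were not counted. None of the 7 entries of the 5 genes held a STAT, AP-1 or E2F match, against 7.02%, 6.75%, 0.256% and 0.417% of all promoters for the STAT, AP-1 and both E2F motifs. A GC box was found in 32.7% of all promoters. The Cdkn1a window shown lies before Cdkn1a-202, which held 15.9% of the Cdkn1a transcript total. Cdkn1a-201, with 82.3%, starts at 29093772. The entry just before that start, not shown, held 2 GC boxes and 0 p53 half-sites.

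Gene levels were given as FPKM, which are per transcript length and per library, so levels of different genes can be set side by side only roughly. Ccnd1, with 1 deposited transcript, averaged 12.1 FPKM in untreated cells at the gene level and 15.2 FPKM as Ccnd1-201. Gene and transcript values were therefore not on the same scale. Library sums ran from 257329 to 273570 FPKM, and the number of reads behind them is unknown. Across genes, libraries of one group had Spearman's rho of at least 0.988, libraries of different groups of at least 0.963, and 0 pairs were identical. All 8 macrophage and all 8 alveolar macrophage markers were in the table, and of the markers of other cell types only the neutrophil-associated genes Cxcr2 and S100a8 (2 of 10) were. The other neutrophil markers listed, Ly6g, Mpo, Elane, Prtn3, Camp, Ltf, S100a9 and Retnlg, were not among the 10653 genes. Summed, Cxcr2 and S100a8 had 68.3 to 71.4 FPKM after riebeckite asbestos, 68.8 to 72.1 after riebeckite fragments, 37.0 to 46.1 after tremolite asbestos and 36.3 to 39.8 after tremolite fragments, against 28.2 to 33.8 FPKM in untreated cells, the reverse of the order of minerals in Ccnd1 and Myc, and their part in those results was not tested. Differences were tested with limma on log2(FPKM + 1) in 1 fit, and a gene was called at an adjusted p under 0.05. On this scale the change of weakly expressed genes is understated. The share of higher genes among those called moved with TMM rescaling, to 50.6% in place of 39.9% after riebeckite fragments and to 54.2% in place of 41.8% after tremolite asbestos.

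Ccnd2 was by far the most abundant of the 9 genes together with Cdkn1a, and Ccnd1 and Myc were the ones that changed most. Against untreated cells, Ccnd1, Ccnd2 and Myc were lower and Cdk6 was higher with each of the 4 particles. Ccnd1 was at 24.2% of its untreated mean after riebeckite asbestos, 28.6% after riebeckite fragments, 54.6% after tremolite asbestos and 36.7% after tremolite fragments. Of the 9 genes, 5 were called after riebeckite asbestos (1 higher, 4 lower), where 45.3% of all genes tested were called, 21% higher and 24.3% lower. After riebeckite fragments 6 were called (2 higher, 4 lower), against 38.4% of all genes, 15.3% higher and 23.1% lower. After tremolite asbestos 5 were called (2 higher, 3 lower), against 23.9%, 10% higher and 13.9% lower. After tremolite fragments 6 were called (3 higher, 3 lower), against 27.5%, 12.5% higher and 15% lower. The 4 comparisons share the untreated libraries, so their calls are not independent of each other. With so many genes called, the number of members called is not read as a property of the set, and the sizes are given gene by gene. The libraries of 5 of the 9 genes did not overlap those of untreated cells after riebeckite asbestos (55.3% of all genes tested), of 7 after riebeckite fragments (49.1%), of 5 after tremolite asbestos (39.9%) and of 6 after tremolite fragments (45.1%).

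**Figure D1:**
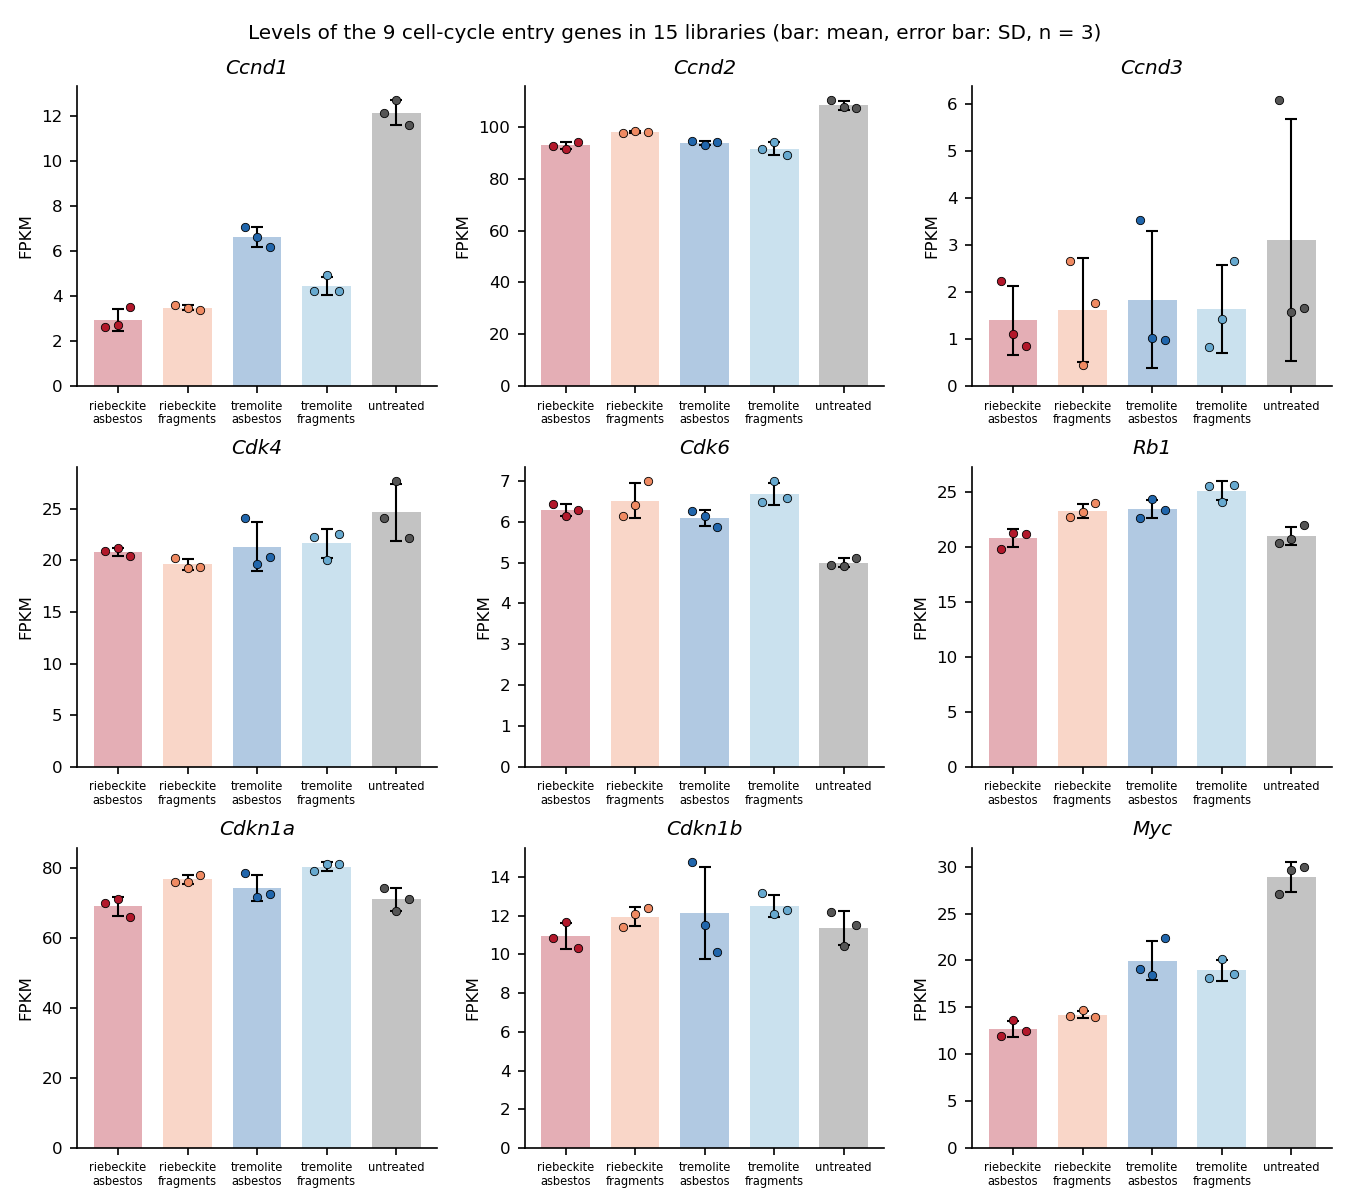
FPKM of each of the 9 genes (vertical axes, starting at 0) in the 5 groups, with points for the 3 libraries, bars for means and error bars for SD. All 12 particle-exposed libraries lie below the 3 untreated ones for Ccnd1, Ccnd2 and Myc and above them for Cdk6.

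Ccnd1 encodes cyclin D1, the D-type cyclin most closely tied to growth factor signals. It stood at 2.60, 2.72 and 3.49 FPKM in the riebeckite asbestos libraries and at 3.58, 3.48 and 3.36 in the riebeckite fragment libraries. The tremolite asbestos libraries had 7.05, 6.63 and 6.18 FPKM and the tremolite fragment libraries 4.22, 4.92 and 4.21, against 12.1, 12.7 and 11.6 FPKM in untreated cells. No exposed library reached the untreated range. The group means fell in the order untreated, tremolite asbestos, tremolite fragments, riebeckite fragments and riebeckite asbestos, and in this order only the riebeckite groups overlapped. The log2 difference was -1.74 after riebeckite asbestos, -1.55 after riebeckite fragments, -0.79 after tremolite asbestos and -1.27 after tremolite fragments (SE 0.0808 each). The limma adjusted p was 2.02e-09 for riebeckite asbestos, 9.13e-09 for riebeckite fragments, 1.34e-05 for tremolite asbestos and 1.23e-07 for tremolite fragments. On the log2(FPKM + 1) scale, which understates falls of weakly expressed genes, Ccnd1 was among the genes that fell most. Of the 10616 genes tested, 13 had a lower log2 difference than Ccnd1 after riebeckite asbestos, 15 after riebeckite fragments, 37 after tremolite asbestos and 13 after tremolite fragments.

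Oraov1 lies on the opposite strand to Ccnd1 and shares 1100 of its 4709 annotated exon bases (GENCODE M21, where the gene is LTO1). The libraries were made with dUTP marking of the second strand, but whether counting used strand is not given in the sources used here. Oraov1 averaged 3.02 FPKM after riebeckite asbestos, 2.68 after riebeckite fragments, 3.68 after tremolite asbestos and 3.28 after tremolite fragments, against 2.89 FPKM in untreated cells, and it was not called (limma adjusted p 0.352 to 0.911). Where counting ignored strand, the value of each gene of such a pair may hold reads of the other, and this uncertainty holds also for Ccnd2, Ccnd3, Cdk4, Cdk6, Cdkn1a and Rb1, which share 273 to 641 exon bases with at least 1 opposite-strand gene. Myc and Cdkn1b share none.

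Ccnd2 (ENSMUSG00000000184.12, chromosome 6, 127125162 to 127152193, minus strand), cyclin D2, was the main D-type cyclin of these cells and changed little in relative terms. It had 92.8, 91.8 and 94.5 FPKM after riebeckite asbestos and 97.8, 98.5 and 98.2 after riebeckite fragments. It had 94.8, 93.2 and 94.2 FPKM with tremolite asbestos and 91.5, 94.3 and 89.4 with tremolite fragments, against 110.5, 108 and 107 FPKM in untreated cells. The untreated libraries lay above all others, and after them the riebeckite fragment libraries lay above the other 9. The log2 difference was -0.22 after riebeckite asbestos, -0.14 after riebeckite fragments, -0.20 after tremolite asbestos and -0.24 after tremolite fragments (SE 0.0250 each). Each was called, with limma adjusted p = 1.07e-05 for riebeckite asbestos, 5.35e-04 for riebeckite fragments, 6.02e-05 for tremolite asbestos and 1.06e-05 for tremolite fragments.

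The D-type cyclin mixture therefore differed between groups. Ccnd1 made up 3.02 ± 0.458% of the summed FPKM of Ccnd1, Ccnd2 and Ccnd3 after riebeckite asbestos, 3.36 ± 0.0979% after riebeckite fragments, 6.46 ± 0.312% after tremolite asbestos and 4.54 ± 0.298% after tremolite fragments, against 9.81 ± 0.520% in untreated cells (SD, n = 3). The share of Ccnd2 was 95.6 ± 0.483% after riebeckite asbestos, 95.1 ± 1.08% after riebeckite fragments, 91.8 ± 1.59% after tremolite asbestos and 93.8 ± 0.960% after tremolite fragments, against 87.7 ± 1.68% in untreated cells. No exposed library reached the Ccnd1 share of any untreated library. The summed level of the 3 genes was 97.4 ± 1.64 FPKM after riebeckite asbestos, 103 ± 0.801 after riebeckite fragments, 103 ± 2.47 after tremolite asbestos and 97.8 ± 2.46 after tremolite fragments, against 124 ± 4.32 FPKM in untreated cells. These sums hold the uncertain values of Ccnd3, and summed transcripts gave Ccnd1 shares of 2.39% with riebeckite asbestos, 2.63% with riebeckite fragments, 5.13% with tremolite asbestos and 3.59% with tremolite fragments, against 7.81% in untreated cells.

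Ccnd3 (ENSMUSG00000034165.16, chromosome 17, 47505051 to 47599691, plus strand), cyclin D3, could not be measured reliably. Its gene level was 2.23, 1.10 and 0.854 FPKM with riebeckite asbestos, 2.65, 0.448 and 1.77 with riebeckite fragments, 3.53, 1.02 and 0.975 with tremolite asbestos and 0.825, 1.43 and 2.66 with tremolite fragments, against 6.09, 1.57 and 1.66 FPKM in untreated cells. The values spread 13.6-fold over the libraries and the groups overlapped. The transcript Ccnd3-202 was listed at 19.3 FPKM in untreated library 1 and at 0 in the other 14 libraries, and Ccnd3-205 ranged between 0.360 and 13.8 FPKM. Ccnd3 was called in none of the comparisons, with limma adjusted p between 0.283 and 0.516 against untreated cells. The difference after riebeckite asbestos had a 95% interval of -1.66 to 0.36, so changes as large as that of Cdk4 could not be seen. Bysl, which shares 361 exon bases with Ccnd3 on the other strand, was called lower with each particle (limma adjusted p 0.00143 to 0.0436). It averaged 6.20 FPKM after riebeckite asbestos, 5.26 after riebeckite fragments, 5.77 after tremolite asbestos and 5.58 after tremolite fragments, against 7.49 FPKM in untreated cells. Its part in the Ccnd3 values was not tested.

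**Figure D2:**
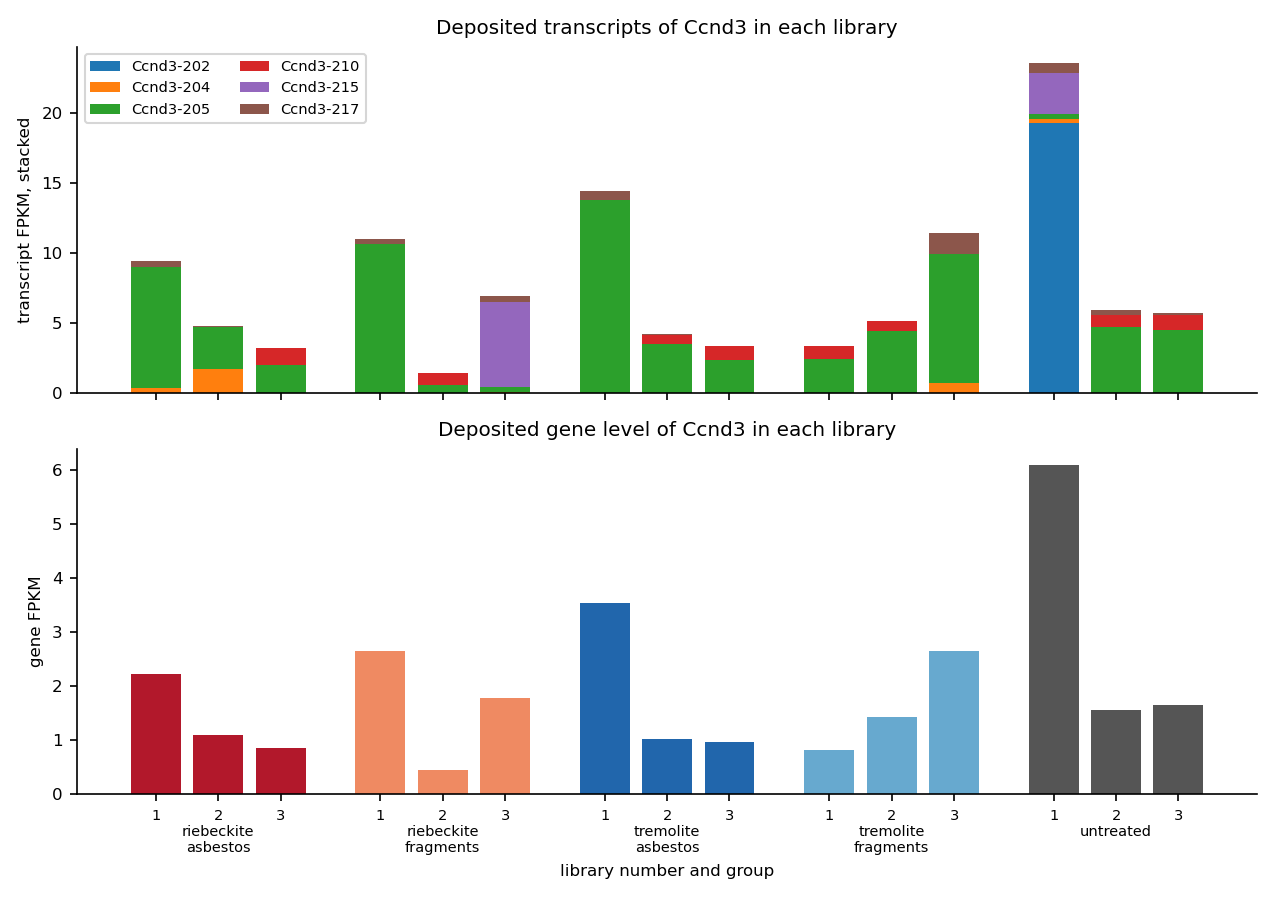
Deposited transcripts of Ccnd3, stacked (upper panel, transcript FPKM), and the deposited gene level (lower panel, gene FPKM) in each of the 15 libraries. Ccnd3-202 fills most of the bar of untreated library 1 and is listed at 0 elsewhere, where Ccnd3-205 mostly leads.

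Of the kinase genes, Cdk6 rose with each particle, while Cdk4 was called lower only with the riebeckite particles, in calls that depended on the processing. Cdk6 (ENSMUSG00000040274.11) lies on chromosome 5 at 3341485 to 3531008 and Cdk4 (ENSMUSG00000006728.12) on chromosome 10 at 127063534 to 127067920, both on the plus strand. Cdk6 had 6.42, 6.14 and 6.29 FPKM with riebeckite asbestos, 6.14, 6.41 and 6.99 with riebeckite fragments, 6.25, 6.15 and 5.87 with tremolite asbestos and 6.48, 6.99 and 6.57 with tremolite fragments, against 4.94, 4.92 and 5.11 FPKM in untreated cells. All exposed libraries lay above all untreated ones, and the particle groups overlapped their neighbours. The log2 difference was 0.28 after riebeckite asbestos, 0.32 after riebeckite fragments, 0.24 after tremolite asbestos and 0.36 after tremolite fragments (SE 0.0474 each). The limma adjusted p was 3.23e-04 for riebeckite asbestos, 1.22e-04 for riebeckite fragments, 0.00226 for tremolite asbestos and 8.59e-05 for tremolite fragments.

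Cdk4 had 20.9, 21.2 and 20.4 FPKM with riebeckite asbestos, 20.2, 19.2 and 19.4 with riebeckite fragments, 24.1, 19.6 and 20.3 with tremolite asbestos and 22.2, 20.1 and 22.6 with tremolite fragments, against 24.1, 27.7 and 22.2 FPKM in untreated cells. Both riebeckite groups lay below the untreated range, and both tremolite groups overlapped it. Cdk4 fell after riebeckite asbestos (-0.23, SE 0.0806, limma adjusted p = 0.0352) and riebeckite fragments (-0.31, limma adjusted p = 0.00825). It was not called after tremolite asbestos (-0.20, limma adjusted p = 0.0925) or tremolite fragments (-0.18, limma adjusted p = 0.127). The riebeckite asbestos call ended without any 1 of the 3 riebeckite asbestos libraries (limma adjusted p = 0.0739, 0.0588 and 0.0883 without library 1, 2 or 3), without untreated library 1 (0.0586) or 2 (0.160), with TMM rescaling (0.0547), with only these groups in the fit (0.0521) and with summed transcripts (0.483). The riebeckite fragment call ended with summed transcripts (limma adjusted p = 0.210), while Cdk4 became called after tremolite asbestos without tremolite asbestos library 1 (0.0183) or untreated library 3 (0.0379) and after tremolite fragments without untreated library 3 (0.0478). Tspan31, which shares 641 of the 3249 exon bases of Cdk4 on the other strand, was higher after riebeckite asbestos (46.6 against 39.3 FPKM in untreated cells, 0.24, limma adjusted p = 8.13e-04) and not called after riebeckite fragments (42.5 FPKM, 0.11, limma adjusted p = 0.0717). Its part in the Cdk4 values was not tested.

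Rb1 (ENSMUSG00000022105.6, chromosome 14, 73183673 to 73325822, minus strand) encodes the brake that D-type cyclin kinases relieve. It had 19.8, 21.3 and 21.2 FPKM with riebeckite asbestos, 22.7, 23.1 and 24.0 with riebeckite fragments, 22.7, 24.3 and 23.3 with tremolite asbestos and 25.5, 24.1 and 25.7 with tremolite fragments, against 20.3, 20.7 and 22.0 FPKM in untreated cells. The riebeckite asbestos libraries overlapped the untreated ones, and the other 3 particle groups lay above them. Rb1 rose after riebeckite fragments (0.14, SE 0.0424, limma adjusted p = 0.0175), tremolite asbestos (0.15, limma adjusted p = 0.0196) and tremolite fragments (0.25, limma adjusted p = 7.10e-04), and was not called after riebeckite asbestos (-0.01, limma adjusted p = 0.804). The riebeckite fragment call ended without riebeckite fragment library 3 (limma adjusted p = 0.0651) or untreated library 1 (0.0657) or 2 (0.0595), and the tremolite asbestos call without tremolite asbestos library 2 (0.0751), without untreated library 1 (0.0738) or 2 (0.0684) and with only these groups in the fit (0.0596). Rcbtb2 shares 488 of the 6015 exon bases of Rb1 on the other strand. It averaged 17.7 FPKM after riebeckite asbestos, 22.9 after riebeckite fragments, 21.3 after tremolite asbestos and 22.5 after tremolite fragments, against 18.1 FPKM in untreated cells, and like Rb1 it was called higher in all but riebeckite asbestos (limma adjusted p = 1.51e-04 after riebeckite fragments, 0.00427 after tremolite asbestos and 4.40e-04 after tremolite fragments). Lpar6, which shares 408 exon bases with Rb1 on the other strand, did not follow it, with a fall after riebeckite asbestos (-0.30, limma adjusted p = 0.0119) and riebeckite fragments (-0.29, limma adjusted p = 0.0168) and no call after tremolite asbestos (0.02, limma adjusted p = 0.885) or tremolite fragments (-0.21, limma adjusted p = 0.0912). The part of either gene in the Rb1 values was not tested.

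The inhibitor genes changed little. Cdkn1a (ENSMUSG00000023067.13) lies on chromosome 17 at 29090979 to 29100722 and Cdkn1b (ENSMUSG00000003031.14) on chromosome 6 at 134920401 to 134925513, both on the plus strand. Cdkn1a, at 65.9 to 81.3 FPKM the most abundant member beside Ccnd2, had 70.0, 71.3 and 65.9 FPKM after riebeckite asbestos and 76.2, 76.1 and 78.2 after riebeckite fragments. It had 78.7, 71.9 and 72.5 FPKM with tremolite asbestos and 79.1, 81.3 and 81.1 with tremolite fragments, against 74.4, 67.7 and 71.2 FPKM in untreated cells. Both fragment groups lay above the untreated range, and both asbestos groups overlapped it. Cdkn1a rose after tremolite fragments (0.18, SE 0.0426, limma adjusted p = 0.00711). It was not called after riebeckite fragments (0.11, limma adjusted p = 0.0573), tremolite asbestos (0.06, limma adjusted p = 0.325) or riebeckite asbestos (-0.04, limma adjusted p = 0.463). For riebeckite fragments it became called with TMM rescaling (limma adjusted p = 0.0163) and without riebeckite asbestos library 3 (0.0475), tremolite asbestos library 1 (0.0343) or untreated library 1 (0.0270).

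Cdkn1b ranged between 10.1 and 14.8 FPKM over all libraries and was called in no comparison. Its group means were 11.0 ± 0.666 FPKM after riebeckite asbestos, 12.0 ± 0.504 after riebeckite fragments, 12.1 ± 2.38 after tremolite asbestos and 12.5 ± 0.580 after tremolite fragments, against 11.4 ± 0.875 FPKM in untreated cells (SD, n = 3). The 95% interval of its log2 difference was -0.27 to 0.17 after riebeckite asbestos and -0.09 to 0.35 after tremolite fragments, and the limma adjusted p against untreated cells lay between 0.390 and 0.717.

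Myc had 12.0, 13.7 and 12.5 FPKM after riebeckite asbestos and 14.0, 14.7 and 13.9 after riebeckite fragments. It had 19.1, 18.4 and 22.4 FPKM with tremolite asbestos and 18.1, 20.2 and 18.5 with tremolite fragments, against 27.0, 29.6 and 29.9 FPKM in untreated cells. The untreated libraries lay on top, the overlapping tremolite groups next, then the riebeckite fragment libraries and lowest the riebeckite asbestos libraries. Only the tremolite groups overlapped. Myc was at 44.0% of its untreated mean after riebeckite asbestos, 49.2% after riebeckite fragments, 69.2% after tremolite asbestos and 65.6% after tremolite fragments. The log2 difference was -1.13 after riebeckite asbestos, -0.97 after riebeckite fragments, -0.51 after tremolite asbestos and -0.58 after tremolite fragments (SE 0.0704 each), with limma adjusted p = 3.61e-08 for riebeckite asbestos, 2.09e-07 for riebeckite fragments, 1.53e-04 for tremolite asbestos and 3.80e-05 for tremolite fragments. Of all genes tested, 60 had a lower log2 difference than Myc after riebeckite asbestos, 74 after riebeckite fragments, 149 after tremolite asbestos and 149 after tremolite fragments. This ranking, too, understates falls of weakly expressed genes.

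**Figure D3:**
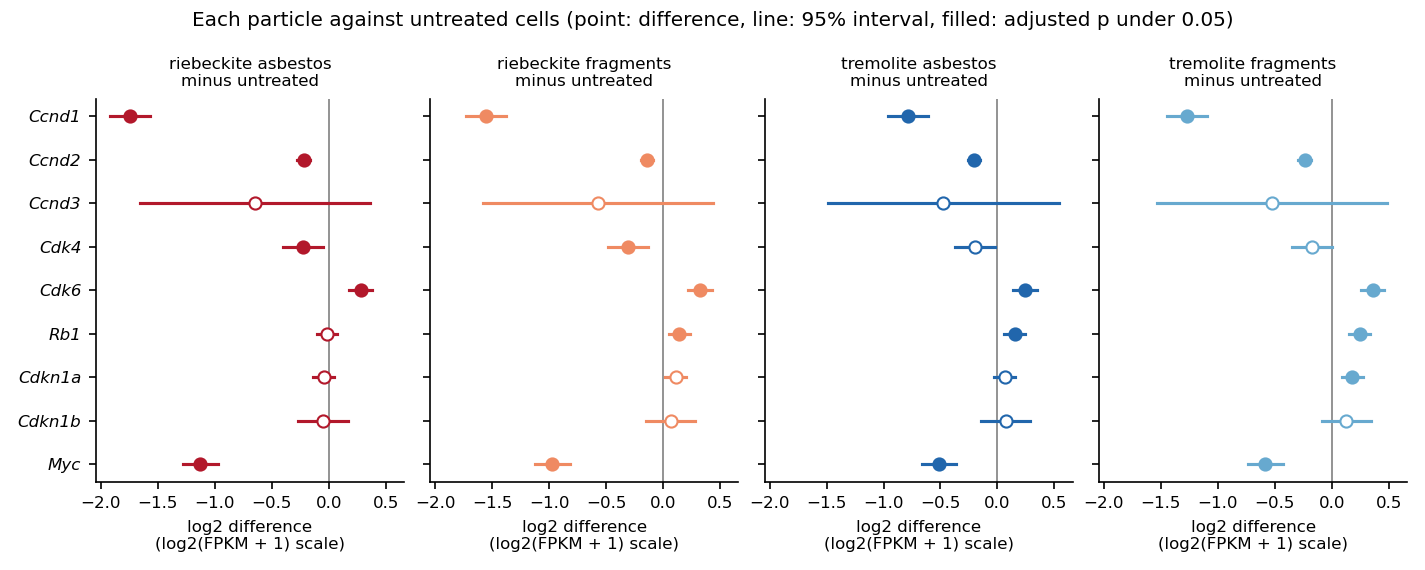
Log2 difference of each particle minus untreated cells (horizontal axes, log2(FPKM + 1) scale) for the 9 genes, with 95% intervals and filled points for adjusted p under 0.05. Ccnd1 lies farthest to the left with each particle, from -0.79 to -1.74, followed by Myc among the called genes, and the interval of Ccnd3 is the widest.

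The deposited transcript table held 29 transcripts of the 9 genes, and 26 were among the 22038 tested. Ccnd1 and Rb1 had 1 deposited transcript each, Ccnd1-201 and Rb1-201, and gene values were not the sums of deposited transcripts. Against untreated cells, 6 were called after riebeckite asbestos (13% of all transcripts tested), 6 after riebeckite fragments (10.3%), 4 after tremolite asbestos (5.02%) and 6 after tremolite fragments (6.29%). Of the Myc transcripts, Myc-206 averaged 7.66 ± 0.955 FPKM after riebeckite asbestos, 9.54 ± 0.213 after riebeckite fragments, 13.6 ± 2.29 after tremolite asbestos and 14.1 ± 0.481 after tremolite fragments, against 21.6 ± 1.35 FPKM in untreated cells, and was lower with each particle. Its log2 difference was -1.39 after riebeckite asbestos (limma adjusted p = 2.25e-06) and -0.64 after tremolite asbestos (limma adjusted p = 0.00337). Myc-201 and Myc-204 fell after riebeckite asbestos (-1.08 and -0.97) and riebeckite fragments (-1.03 and -0.81), and the other 3 Myc transcripts were not called. Cdk6-202, which held 93.6% of the Cdk6 transcript total, rose with each particle, and Ccnd2-201, with 94.0% of the Ccnd2 total, fell with each. Cdkn1a-201, with 82.3% of the Cdkn1a total, and Rb1-201 rose after tremolite fragments (0.18 and 0.25, limma adjusted p = 0.0276 and 0.00619). None of the 3 Cdk4 transcripts was called, with Cdk4-201, the main one, at 12.5 ± 0.614 FPKM after riebeckite asbestos, 12.3 ± 1.71 after riebeckite fragments, 14.0 ± 2.02 after tremolite asbestos and 12.4 ± 0.880 after tremolite fragments, against 13.7 ± 0.873 FPKM in untreated cells.

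The next question was whether asbestos and cleavage fragments of the same mineral differed. In riebeckite, Ccnd1 did not pass the test (2.94 ± 0.484 FPKM with asbestos and 3.47 ± 0.110 with fragments, -0.19, 95% interval -0.37 to -0.02, limma adjusted p = 0.162), nor did Myc (12.7 ± 0.880 FPKM with asbestos and 14.2 ± 0.402 with fragments, -0.15, limma adjusted p = 0.193). Ccnd1 was called without riebeckite asbestos library 3 (-0.29, limma adjusted p = 0.0247). Called were 2 of the 9 genes, against 10.6% of all genes tested (6.71% higher and 3.85% lower with asbestos), with Cdkn1a lower (-0.15, limma adjusted p = 0.0397) and Rb1 lower (-0.16, limma adjusted p = 0.0333) with asbestos. Both calls ended with only the groups compared in the fit (limma adjusted p = 0.0934 and 0.111) and with summed transcripts (0.0956 and 0.0562). The Cdkn1a call also ended without the mean-variance trend (0.0589) and in 9 of the 15 omissions of a library (limma adjusted p 0.0514 to 0.130, without riebeckite asbestos library 1 or 3, any riebeckite fragment library, any tremolite fragment library or untreated library 3), and the Rb1 call in 4 (0.0516 to 0.122, without riebeckite asbestos library 1 or 2 or riebeckite fragment library 2 or 3). Among all genes 63.5% of the calls between riebeckite asbestos and fragments were higher with asbestos, and 46.1% after TMM rescaling. Ccnd2 was not called (-0.08, limma adjusted p = 0.0688) and became called with TMM rescaling (-0.10, limma adjusted p = 0.0321), quantile normalization (-0.10, limma adjusted p = 0.0427) and a mean of at least 5 FPKM (-0.08, limma adjusted p = 0.0491). The libraries of 5 of the 9 genes did not overlap, against 29% of all genes, with Ccnd2, Cdkn1a, Myc and Rb1 lower and Cdk4 higher with asbestos. None of the 26 transcripts was called with limma (5 at an unadjusted p under 0.05), against 1.28% of all transcripts.

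In tremolite, Ccnd1 was the only one of the 9 genes called, against 0.942% of all genes tested (0.386% higher and 0.556% lower with asbestos). It was higher with asbestos, at 6.62 ± 0.434 FPKM, than with fragments, at 4.45 ± 0.407 FPKM, without overlap of the libraries (0.49, SE 0.0808, limma adjusted p = 0.0148). The call ended without tremolite asbestos library 1 (0.45, limma adjusted p = 0.0682), tremolite fragment library 1 (0.46, limma adjusted p = 0.0694) or 3 (0.45, limma adjusted p = 0.0600) and with only these groups in the fit (0.49, limma adjusted p = 0.0670). Myc stood at 20.0 ± 2.10 FPKM with tremolite asbestos and 18.9 ± 1.09 with fragments and did not pass the test (0.07, 95% interval -0.08 to 0.22, limma adjusted p = 0.805). Libraries did not overlap for 3 of the 9 genes, Ccnd1 and, lower with asbestos, Cdk6 and Cdkn1a, against 17% of all genes. None of the 26 transcripts was called with limma (3 at an unadjusted p under 0.05), against 0.123% of all transcripts.

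The Ccnd1 differences between asbestos and fragments had opposite signs in the minerals, and the difference of these differences was tested in the same fit. It was -0.68 (SE 0.114, 95% interval -0.92 to -0.43, limma adjusted p = 0.00725), and Ccnd1 was the only one of the 9 genes called, against 3.93% of all genes (2.65% positive and 1.28% negative). A positive value means that asbestos minus fragments was greater in riebeckite than in tremolite. For Myc it was -0.22 (limma adjusted p = 0.254). Over 24 other settings the Ccnd1 value stayed between -0.81 and -0.62 and was called in each (limma adjusted p 0.00173 to 0.0231). Among all genes 67.4% of the calls in this test were positive, and 49.1% after TMM rescaling. At the transcript level the Ccnd1-201 value was -0.69 and was not called (limma adjusted p = 0.0762), where 0.286% of all transcripts were called.

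The minerals were then compared within each habit. Between the asbestos groups 3 of the 9 genes were called, against 26.5% of all genes tested (15.5% higher and 11% lower with riebeckite). Ccnd1 was lower with riebeckite asbestos, 2.94 ± 0.484 FPKM, than with tremolite asbestos, 6.62 ± 0.434 FPKM (-0.96, SE 0.0808, limma adjusted p = 3.68e-06). Myc was lower as well (12.7 ± 0.880 FPKM with riebeckite asbestos and 20.0 ± 2.10 with tremolite asbestos, -0.61, limma adjusted p = 4.34e-05), as was Rb1 (20.8 ± 0.814 FPKM with riebeckite asbestos and 23.4 ± 0.827 with tremolite asbestos, -0.17, limma adjusted p = 0.0113). The libraries of these 3 genes and of Cdkn1a did not overlap between the groups, against 40.6% of all genes. Ccnd1-201 (3.68 ± 0.629 FPKM with riebeckite asbestos and 8.29 ± 0.600 with tremolite asbestos) and Myc-206 (-0.75) were the transcripts called lower, against 5.25% of all transcripts called, and the Rb1 call ended without riebeckite asbestos library 1 (limma adjusted p = 0.0541).

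Between the fragment groups 3 of the 9 genes were called, against 11.3% of all genes tested (5.31% higher and 6.01% lower with riebeckite). Myc was lower with riebeckite fragments, 14.2 ± 0.402 FPKM, than with tremolite fragments, 18.9 ± 1.09 FPKM (-0.39, SE 0.0704, limma adjusted p = 0.00342), and its call held in all 24 other settings. Ccnd1 was lower (3.47 ± 0.110 FPKM with riebeckite fragments and 4.45 ± 0.407 with tremolite fragments, -0.28, limma adjusted p = 0.0413) and Ccnd2 higher (98.2 ± 0.352 FPKM with riebeckite fragments and 91.7 ± 2.47 with tremolite fragments, 0.10, limma adjusted p = 0.0255). The libraries of these 3 genes and, lower with riebeckite, of Cdkn1a and Rb1 did not overlap, against 32% of all genes, and Myc-206 (-0.51) was the only 1 of the 26 transcripts called, against 1.56% of all transcripts. The Ccnd1 call ended in 14 of 24 other settings, among them TMM rescaling (limma adjusted p = 0.0530) and the omission of any riebeckite fragment or tremolite fragment library, tremolite asbestos library 2 or untreated library 1 or 2 (0.0521 to 0.149). The Ccnd2 call ended in 8, among them quantile normalization (0.303) and the omission of any riebeckite fragment library or tremolite fragment library 1 or 3 (0.0570 to 0.110).

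**Figure D4:**
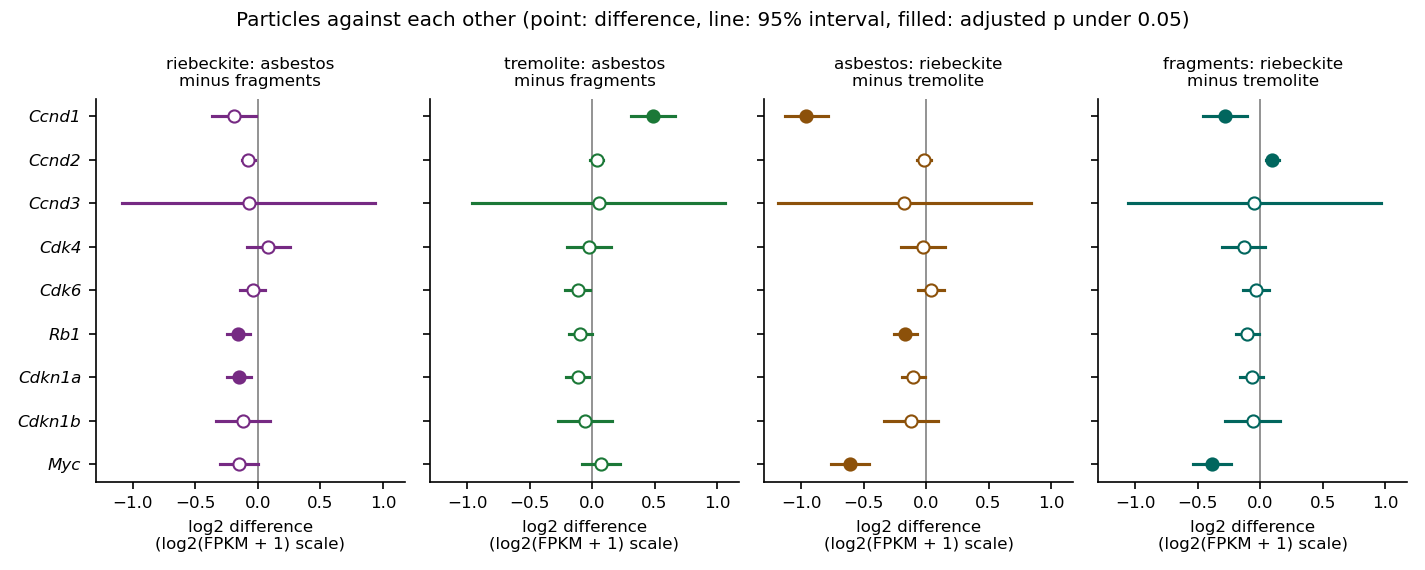
Log2 difference between particles (horizontal axes, log2(FPKM + 1) scale) for the 9 genes, with 95% intervals and filled points for adjusted p under 0.05. The Ccnd1 point is at -0.19 for asbestos minus fragments in riebeckite and at 0.49 in tremolite, and Myc lies left of 0 in both panels of riebeckite minus tremolite.

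Genes whose levels ran most like those of a member over the 15 libraries were looked for among 6512 genes averaging at least 5 FPKM. These correlations are on log2(FPKM + 1), and their points share the 5 groups and the scaling of each library, so they are descriptions of this dataset. Closest to Ccnd1 were Pirb, an inhibitory receptor gene (r = 0.987), Fcgr2b, the inhibitory Fc receptor gene (r = 0.981), and Nov, a secreted protein of the CCN family (r = 0.980). Fcgr2b averaged 41.1 ± 4.83 FPKM after riebeckite asbestos, 45.7 ± 4.87 after riebeckite fragments, 75.0 ± 5.68 after tremolite asbestos and 62.0 ± 2.47 after tremolite fragments, against 135 ± 3.45 FPKM in untreated cells. Closest to Myc were Eid1 (r = 0.986), Tifab (r = 0.983) and the lectin gene Clec4a3 (r = 0.980), to Ccnd2 Tuba1b, an alpha-tubulin gene (r = 0.950), Plaur, the urokinase receptor gene (r = 0.939), and Hcls1 (r = 0.938), and to Cdkn1a Dhrs3 (r = 0.879), Dstn, the actin-severing destrin gene (r = 0.844), and Ccndbp1 (r = 0.834). Eid1 averaged 9.02 ± 0.374 FPKM after riebeckite asbestos, 11.0 ± 0.787 after riebeckite fragments, 17.1 ± 0.555 after tremolite asbestos and 15.8 ± 0.0544 after tremolite fragments, against 27.0 ± 1.91 FPKM in untreated cells.

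Around the 9 genes, lists of their partners and targets were counted, none of which includes a member. Of all genes tested, 21% were called higher and 24.3% lower with riebeckite asbestos, 15.3% higher and 23.1% lower with riebeckite fragments, 10% higher and 13.9% lower with tremolite asbestos, and 12.5% higher and 15% lower with tremolite fragments, and the counts of each list are to be read against these shares. Growth genes known to be induced by Myc were mostly lower. Of 30, 19 fell and 1 rose after riebeckite asbestos, 24 fell and 1 rose after riebeckite fragments, 23 fell and 0 rose after tremolite asbestos, and 25 fell and 0 rose after tremolite fragments, so that 63.3% of the list were lower with riebeckite asbestos, 80% with riebeckite fragments, 76.7% with tremolite asbestos and 83.3% with tremolite fragments. At an unadjusted limma p under 0.05 the count higher after either tremolite particle was also 0. The list's median log2 difference was -0.21 after riebeckite asbestos (all genes -0.02), -0.30 after riebeckite fragments (all genes -0.04), -0.26 after tremolite asbestos (all genes -0.03) and -0.28 after tremolite fragments (all genes -0.02). Odc1, the rate-limiting enzyme of polyamine synthesis, averaged 21.9 ± 1.02 FPKM after riebeckite asbestos, 23.7 ± 3.16 after riebeckite fragments, 23.3 ± 0.982 after tremolite asbestos and 23.2 ± 1.71 after tremolite fragments, against 39.1 ± 1.27 FPKM in untreated cells. Its log2 difference was -0.80 after riebeckite asbestos, -0.71 after riebeckite fragments, -0.72 after tremolite asbestos and -0.73 after tremolite fragments (limma adjusted p 2.36e-06 to 1.88e-05). Nop58, of the nucleolar RNA-modifying complex, fell by 0.50 to 0.62 on the log2 scale, Ddx21, a nucleolar helicase, by 0.22 to 0.36 and Tfrc, the transferrin receptor, by 0.27 to 0.50, and the calls of Nop58 ended with summed transcripts. Between riebeckite and tremolite asbestos 5 of the 30 growth genes were called, all higher with riebeckite, which is 16.7% of the list against 15.5% of all genes called higher there, a share near the background. With summed transcripts the count lower was 12 after riebeckite asbestos, 17 after riebeckite fragments, 17 after tremolite asbestos and 19 after tremolite fragments, and the 1 gene that rose after riebeckite fragments was not called without riebeckite fragment library 1 or 2 or untreated library 3.

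Replication genes driven by E2F were lower too. Of 30, 15 fell after riebeckite asbestos, 18 after riebeckite fragments, 22 after tremolite asbestos and 23 after tremolite fragments, and 0 rose with any particle, except that 1 rose after riebeckite fragments with TMM rescaling and 1 after riebeckite asbestos with summed transcripts. At an unadjusted limma p under 0.05 the count higher was 0 as well. The lower share of the list was 50% after riebeckite asbestos, 60.0% after riebeckite fragments, 73.3% after tremolite asbestos and 76.7% after tremolite fragments. The median was -0.17 after riebeckite asbestos, -0.22 after riebeckite fragments, -0.31 after tremolite asbestos and -0.31 after tremolite fragments. Mcm6, of the replicative helicase, averaged 20.2 ± 0.482 FPKM after riebeckite asbestos, 20.0 ± 0.643 after riebeckite fragments, 18.8 ± 0.580 after tremolite asbestos and 19.1 ± 0.608 after tremolite fragments, against 27.1 ± 0.300 FPKM in untreated cells (log2 differences -0.51 to -0.41, limma adjusted p 4.24e-07 to 8.45e-07). Rrm2, of ribonucleotide reductase, was lower by -0.37 after riebeckite asbestos, -0.35 after riebeckite fragments, -0.59 after tremolite asbestos and -0.58 after tremolite fragments. Uhrf1, which guides the copying of DNA methylation, was lower by -0.17 after riebeckite asbestos and -0.49 after tremolite asbestos, and Mcm5 by -0.21 after riebeckite asbestos and -0.36 after tremolite asbestos. Between the asbestos groups 9 of the 30 were called, all higher with riebeckite, which is 30.0% of the list against 15.5% of all genes.

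The E2F factors, pocket proteins and cyclin E genes were near the background after riebeckite asbestos, with 27.8% of the list lower against 24.3% of all genes. The lower share was 38.9% after riebeckite fragments, 44.4% after tremolite asbestos and 55.6% after tremolite fragments, against 23.1%, 13.9% and 15% of all genes. Of 18, 5 fell and 2 rose after riebeckite asbestos, 7 fell and 1 rose after riebeckite fragments, 8 fell and 0 rose after tremolite asbestos, and 10 fell and 0 rose after tremolite fragments, where 1 rose with TMM rescaling or quantile normalization and at an unadjusted limma p under 0.05. The lower counts were 4 to 5 after riebeckite asbestos, 5 to 8 after riebeckite fragments, 7 to 9 after tremolite asbestos and 7 to 10 after tremolite fragments when 1 library was left out. Ccne2, cyclin E2, averaged 6.30 ± 0.529 FPKM after riebeckite asbestos, 6.87 ± 0.665 after riebeckite fragments, 5.58 ± 0.324 after tremolite asbestos and 5.73 ± 0.178 after tremolite fragments, against 9.01 ± 0.513 FPKM in untreated cells. Rbl1, the pocket protein p107, fell by 0.43 on the log2 scale after riebeckite asbestos and by 0.28 after tremolite fragments, and E2f7, a repressor of E2F targets, by 0.27 after riebeckite asbestos and by 0.36 after tremolite fragments. E2f3, an activator, was not called after riebeckite asbestos (-0.07, limma adjusted p = 0.283) and fell after riebeckite fragments (-0.17), tremolite asbestos (-0.24) and tremolite fragments (-0.28), and its riebeckite fragment call ended without riebeckite fragment library 1, with quantile normalization and with summed transcripts. Between the asbestos groups 7 of the 18 were called, all higher with riebeckite, which is 38.9% of the list against 15.5% of all genes.

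Genes of G2 and mitosis stood at or below the background with riebeckite fragments, where 16.7% of the list were lower against 23.1% of all genes, and with tremolite fragments, where 13.3% were lower against 15%. After riebeckite asbestos 43.3% were lower against 24.3% of all genes, and after tremolite asbestos 20.0% against 13.9%. The higher share was 6.67% to 13.3%, below that of all genes with each particle. Of 30, 13 fell and 4 rose after riebeckite asbestos, 5 fell and 3 rose after riebeckite fragments, 6 fell and 2 rose after tremolite asbestos, and 4 fell and 3 rose after tremolite fragments. Top2a, the topoisomerase of dividing cells, averaged 30.0 ± 0.606 FPKM after riebeckite asbestos, 33.4 ± 1.29 after riebeckite fragments, 31.9 ± 1.47 after tremolite asbestos and 32.0 ± 1.36 after tremolite fragments, against 40.1 ± 1.75 FPKM in untreated cells. The mitotic kinesin gene Kif11 fell by 0.38 on the log2 scale after riebeckite asbestos and by 0.24 after tremolite fragments, and Kif23 by 0.41 after riebeckite asbestos. Ccng2, an atypical cyclin linked to cell-cycle exit, rose by 0.15 after riebeckite asbestos, 0.27 after riebeckite fragments, 0.32 after tremolite asbestos and 0.48 after tremolite fragments. It was on this list, and these calls are among those counted as higher. They ended with summed transcripts, that after riebeckite asbestos also without riebeckite asbestos library 3 or untreated library 2. With TMM rescaling 4 fell and 6 rose after riebeckite fragments, and the count lower was 3 without riebeckite fragment library 1 and, after tremolite fragments, 2 without tremolite fragment library 1 or 2. The count higher after tremolite asbestos was 1 without tremolite asbestos library 3 or untreated library 2 or 3.

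**Figure D5:**
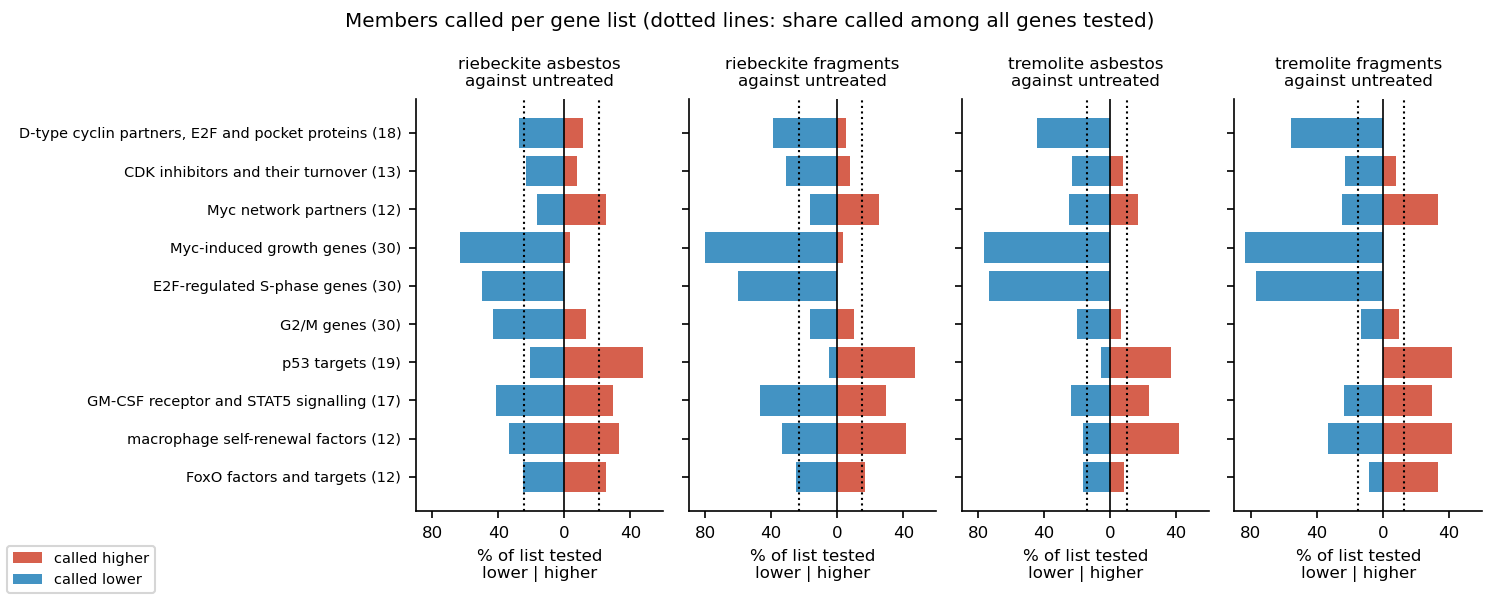
Percent of the tested genes of each list (number in parentheses) called higher (right of 0) or lower (left of 0) with each particle against untreated cells, with dotted lines for the shares among all genes tested. The bars of Myc-induced growth genes and S-phase genes reach 50% to 83.3% on the lower side, and those of p53 targets 36.8% to 47.4% on the higher side.

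Targets of p53 other than Cdkn1a were listed together with Trp53, the gene of p53 itself. Of this list, 47.4% were called higher after riebeckite asbestos, 47.4% after riebeckite fragments, 36.8% after tremolite asbestos and 42.1% after tremolite fragments, against 21%, 15.3%, 10% and 12.5% of all genes. Of 19 tested, 9 rose and 4 fell after riebeckite asbestos, 9 rose and 1 fell after riebeckite fragments, 7 rose and 1 fell after tremolite asbestos, and 8 rose and 0 fell after tremolite fragments (0 also at an unadjusted limma p under 0.05). The count lower after riebeckite asbestos was 2 without riebeckite asbestos library 1 or untreated library 3, that after riebeckite fragments 2 without tremolite asbestos library 1 and that after tremolite asbestos 0 without tremolite asbestos library 2 or untreated library 2, and with summed transcripts the count higher was 5 after riebeckite asbestos, 6 after riebeckite fragments, 5 after tremolite asbestos and 5 after tremolite fragments. Phlda3, a p53-induced inhibitor of Akt, averaged 88.5 ± 4.89 FPKM after riebeckite asbestos, 83.2 ± 5.79 after riebeckite fragments, 62.3 ± 2.67 after tremolite asbestos and 65.0 ± 1.56 after tremolite fragments, against 43.1 ± 1.95 FPKM in untreated cells (log2 differences 0.52 to 1.02, limma adjusted p 8.08e-09 to 1.57e-05). Plk2 rose by 0.44 after riebeckite asbestos, 0.25 after riebeckite fragments, 0.55 after tremolite asbestos and 0.81 after tremolite fragments, and the riebeckite fragment call ended without riebeckite fragment library 1 or untreated library 1. Plk3 rose by 1.07 after riebeckite asbestos, 0.71 after riebeckite fragments, 0.51 after tremolite asbestos and 0.71 after tremolite fragments. Mdm2, the ubiquitin ligase of p53, rose by 0.50 after riebeckite asbestos, 0.38 after riebeckite fragments, 0.26 after tremolite asbestos and 0.44 after tremolite fragments at the gene level, and summed transcripts ended the Plk3 calls and gave Mdm2 a negative difference that was not called.

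Other CDK inhibitors and their turnover factors were called at about the background or below it on the higher side, at 7.69% with each particle. The lower share was 23.1% after riebeckite asbestos, 30.8% after riebeckite fragments, 23.1% after tremolite asbestos and 23.1% after tremolite fragments, against 24.3%, 23.1%, 13.9% and 15% of all genes. Of 13, 1 rose and 3 fell after riebeckite asbestos, 1 rose and 4 fell after riebeckite fragments, 1 rose and 3 fell after tremolite asbestos, and 1 rose and 3 fell after tremolite fragments. The gene that rose was Cdkn1c, which encodes the inhibitor p57. It averaged 0.504 ± 0.0614 FPKM after riebeckite asbestos, 0.642 ± 0.0535 after riebeckite fragments, 1.15 ± 0.139 after tremolite asbestos and 0.698 ± 0.109 after tremolite fragments, against 0.0748 ± 0.0313 FPKM in untreated cells, a low level throughout (log2 differences 0.48 to 1.00, limma adjusted p 1.71e-07 to 3.77e-05). Its untreated level lay under the 0.5 FPKM filter, so Cdkn1c passed that filter only through exposed libraries, where it was high. A gene so low in untreated cells could enter the test only by a rise, so these p-values are not read as support. Cdkn2c, p18, fell by 0.33 on the log2 scale after riebeckite asbestos, Cdkn2a by 0.50 after riebeckite asbestos and 0.54 after riebeckite fragments, and Skp2, the ubiquitin ligase subunit that marks p27 for destruction, by 0.19 after riebeckite asbestos and 0.25 after tremolite asbestos. The Skp2 calls ended with summed transcripts, that after riebeckite asbestos also without untreated library 1 and with only the groups compared in the fit, and the Cdkn1c call after riebeckite asbestos ended with summed transcripts. The lower count after riebeckite fragments was 1 to 2 without any 1 riebeckite fragment library or untreated library 3, and 2 with TMM rescaling.

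Of 12 partners of Myc in its network, 3 rose and 2 fell after riebeckite asbestos, 3 rose and 2 fell after riebeckite fragments, 2 rose and 3 fell after tremolite asbestos, and 4 rose and 3 fell after tremolite fragments. The riebeckite asbestos counts, 25.0% of the list higher and 16.7% lower, lie near the 21% and 24.3% of all genes. The higher share was 25.0% after riebeckite fragments, 16.7% after tremolite asbestos and 33.3% after tremolite fragments, and the lower share 16.7% with riebeckite fragments and 25.0% with either tremolite particle, each resting on 2 to 4 genes. Max, the obligate partner, averaged 12.3 ± 0.537 FPKM after riebeckite asbestos, 12.6 ± 1.14 after riebeckite fragments, 13.8 ± 0.329 after tremolite asbestos and 13.5 ± 0.893 after tremolite fragments, against 17.2 ± 2.61 FPKM in untreated cells. Max fell by 0.45 on the log2 scale after riebeckite asbestos and by 0.41 after riebeckite fragments. After tremolite asbestos its call (-0.28, limma adjusted p = 0.0314) ended without any tremolite asbestos library, without untreated library 2 and with TMM rescaling, and after tremolite fragments its call (-0.32, limma adjusted p = 0.0149) ended without tremolite fragment library 1 or untreated library 2. Mxi1 and Mnt, whose products compete with Myc for Max, rose after riebeckite asbestos (0.32 and 0.32), riebeckite fragments (0.43 and 0.23), tremolite asbestos (0.36 and 0.22) and tremolite fragments (0.44 and 0.22). Mxd4, of the same kind of repressor, fell by 0.47 on the log2 scale after riebeckite asbestos and 0.27 after riebeckite fragments. The lower count was 0 to 1 after tremolite asbestos without tremolite asbestos library 2 or 3 or untreated library 2 or 3, and after tremolite fragments 0 without tremolite fragment library 1 and 1 without untreated library 2, and the higher count there was 2 without tremolite fragment library 1 or untreated library 1 or 3. With TMM rescaling 4 rose and 1 fell after tremolite asbestos.

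Myc and the D-type cyclins lie downstream of the GM-CSF receptor, and genes of that receptor and of its STAT5 signal were called in both directions. Of 17 tested, 5 rose and 7 fell after riebeckite asbestos, 5 rose and 8 fell after riebeckite fragments, 4 rose and 4 fell after tremolite asbestos, and 5 rose and 4 fell after tremolite fragments. The higher share was 29.4% after riebeckite asbestos, 29.4% after riebeckite fragments, 23.5% after tremolite asbestos and 29.4% after tremolite fragments, against 21%, 15.3%, 10% and 12.5% of all genes. The lower share was 41.2% after riebeckite asbestos, 47.1% after riebeckite fragments, 23.5% after tremolite asbestos and 23.5% after tremolite fragments, against 24.3%, 23.1%, 13.9% and 15%. Csf2rb, the common beta chain of the receptor, averaged 292 ± 3.78 FPKM after riebeckite asbestos, 244 ± 3.34 after riebeckite fragments, 245 ± 11.5 after tremolite asbestos and 262 ± 6.80 after tremolite fragments, against 130.1 ± 1.56 FPKM in untreated cells. Csf2rb and its near-identical copy Csf2rb2 both rose, and reads of the pair may be split between them, so the value of either is uncertain. Pim1, a kinase gene induced by STAT5, averaged 51.2 ± 2.11 FPKM after riebeckite asbestos, 45.9 ± 3.64 after riebeckite fragments, 64.3 ± 3.27 after tremolite asbestos and 57.2 ± 4.87 after tremolite fragments, against 79.7 ± 4.20 FPKM in untreated cells, and fell in each comparison (limma adjusted p 1.27e-06 to 0.00554). Cish, a STAT5 target that feeds back on the receptor, fell by 0.89 on the log2 scale after riebeckite asbestos, 0.84 after riebeckite fragments, 0.51 after tremolite asbestos and 0.96 after tremolite fragments, and its calls after both asbestos types ended with summed transcripts.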

How the data were processed

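RNA-seq libraries were made from oligo(dT)-selected mRNA with dUTP marking of the second strand, per the labels' protocols. Reads were trimmed, aligned and assembled with cutadapt, HISAT2 and StringTie on GRCm38, per the submitters' processing notes; no source used here gives versions, the annotation release or the use of strand. The deposited gene and transcript values are FPKM, fragments scaled for transcript length and library size, normalized by the authors; the unit and the low-value filter were read from the tables, in which every gene reached 0.500 FPKM in at least 1 group mean. Whole reads could not be recovered (at most 31.7% of 60 single-transcript genes gave whole values within 0.05 reads), so depth is unknown and no count test was run.

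The test was limma 3.58.1 (R 4.3.3, mean-variance trend) on log2(FPKM + 1), over the genes that reached 0.5 FPKM in 3 or more libraries, in 1 fit of 15 libraries in 5 groups, with Benjamini-Hochberg adjustment over all genes of a comparison and a threshold of 0.05. Transcripts were fitted separately by the same steps. The 9 genes and the lists were chosen with earlier results of these data known. Named were the 9 genes, the 3 genes most correlated with Ccnd1, Ccnd2, Cdkn1a and Myc, and up to 4 genes of each list with the smallest p against untreated cells. Each result was recomputed under 24 other settings: a pseudocount of 0.1, no filter, a mean of at least 5 FPKM, TMM rescaling, quantile normalization, a replicate block, only the groups compared, no trend, summed transcripts, and 15 omissions of 1 library. Promoter sequences were read from the RefSeq table, exon overlaps from GENCODE M21. Tables and figures were made with Python 3.11.15, pandas 2.3.3 and matplotlib 3.10.9.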

Additional observations from a re-analysis of the deposited data

Results flagged for a closer look

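The Ccnd1 difference between asbestos and cleavage fragments was not the same in the minerals. Ccnd1 averaged 2.94 ± 0.484 FPKM with riebeckite asbestos and 3.47 ± 0.110 with riebeckite fragments, and 6.62 ± 0.434 FPKM with tremolite asbestos and 4.45 ± 0.407 with tremolite fragments (SD, n = 3 each). The difference of the differences was -0.68 on the log2(FPKM + 1) scale (SE 0.114, limma adjusted p = 0.00725), where 3.93% of all genes tested were called. The 3 libraries of tremolite asbestos all lay above those of tremolite fragments, while the riebeckite groups overlapped. Riebeckite asbestos was given at 9 and its fragments at 40 µg/cm², tremolite asbestos at 5 and its fragments at 60 µg/cm², so habit and mass cannot be told apart.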

How the results depend on the processing

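Of 1935 results for the 9 genes over 24 other settings, 1862 stayed on the same side of the threshold, 61 lost a call, 12 gained one and 0 turned direction while called. The calls of Ccnd1, Ccnd2, Myc and Cdk6 against untreated cells, of Cdkn1a and Rb1 after tremolite fragments, of Ccnd1 and Myc between the asbestos types, of Myc between the fragments and of Ccnd1 in the difference of differences held in all 24. Between riebeckite asbestos and fragments the number called was 0 with only the groups compared, 1 without the mean-variance trend, 0 with summed transcripts, and 0 to 2 when 1 library was left out, while Ccnd2 gained a call there with TMM rescaling, quantile normalization and the mean of at least 5 FPKM. Between tremolite asbestos and fragments it was 0 with only the groups compared and 0 to 1 when 1 library was left out. Between the fragments it was 1 with quantile normalization, 1 with only the groups compared and 1 to 3 when 1 library was left out. The replicate block ended 1 call among the 9 genes, Ccnd1 between the fragments (limma adjusted p = 0.0577). Same-numbered libraries had correlations of -0.0613 to 0.172 (median 0.0185) in their deviations from the group means over 30 pairs, 4 of them over 0.1. Differently numbered libraries had -0.126 to 0.106 (median -0.0162) over 60 pairs, 1 of them over 0.1. The numbers were not taken as pairing in the main fit, and whether they mark a shared batch was not tested. Summed transcripts turned Mdm2 to -0.23 after riebeckite asbestos, -0.33 after riebeckite fragments, -0.43 after tremolite asbestos and -0.34 after tremolite fragments, none called, and Plk3 to -0.063 between riebeckite asbestos and fragments; the cause was not tested.

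With only the groups compared, which leaves fewer samples in the fit, 275 genes in place of 1121 were called between riebeckite asbestos and fragments, 29 in place of 100 between tremolite asbestos and fragments and 676 in place of 1202 between the fragments. With summed transcripts they were 657 between riebeckite asbestos and fragments, 43 between tremolite asbestos and fragments and 730 between the fragments, and 198 in place of 417 in the difference of differences. Omissions of 1 library that moved a count by over 1.5 times gave 644 to 730 between riebeckite asbestos and fragments, 31 to 61 between tremolite asbestos and fragments, 717 to 782 between the fragments and 210 to 267 in the difference of differences. Read depth is unknown, and genes near 1 FPKM such as Ccnd3 and Cdkn1c have fold changes understated by the pseudocount.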

Other observations

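Factors linked to macrophage self-renewal were called in both directions. Of 12 tested, 4 rose and 4 fell after riebeckite asbestos, 5 rose and 4 fell after riebeckite fragments, 5 rose and 2 fell after tremolite asbestos, and 5 rose and 4 fell after tremolite fragments. The higher share was 33.3% after riebeckite asbestos, 41.7% after riebeckite fragments, 41.7% after tremolite asbestos and 41.7% after tremolite fragments, against 21%, 15.3%, 10% and 12.5% of all genes. The lower share was 33.3% after riebeckite asbestos, 33.3% after riebeckite fragments, 16.7% after tremolite asbestos and 33.3% after tremolite fragments, against 24.3%, 23.1%, 13.9% and 15%. Klf2, a transcription factor linked to quiescence in several blood cells and to self-renewal, averaged 3.91 ± 0.257 FPKM after riebeckite asbestos, 3.46 ± 0.698 after riebeckite fragments, 6.97 ± 0.715 after tremolite asbestos and 6.21 ± 0.738 after tremolite fragments, against 14.0 ± 0.140 FPKM in untreated cells (log2 differences -1.76 to -0.91, limma adjusted p 3.38e-08 to 3.32e-05). Bhlhe41, a factor of alveolar macrophage identity and proliferation, averaged 98.8 ± 2.24 FPKM after riebeckite asbestos, 88.3 ± 1.94 after riebeckite fragments, 78.9 ± 1.33 after tremolite asbestos and 81.3 ± 1.64 after tremolite fragments, against 47.4 ± 1.16 FPKM in untreated cells. Cebpa, a myeloid factor that restrains proliferation, rose by 1.22 after riebeckite asbestos, 0.91 after riebeckite fragments, 0.65 after tremolite asbestos and 0.85 after tremolite fragments on the log2 scale, and Cebpb by 0.34 to 0.76.

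Of 12 FoxO factors and targets, 3 rose and 3 fell after riebeckite asbestos, 2 rose and 3 fell after riebeckite fragments, 1 rose and 2 fell after tremolite asbestos, and 4 rose and 1 fell after tremolite fragments. The riebeckite asbestos counts, 25.0% of the list in each direction, lie near the 21% higher and 24.3% lower of all genes, and the other shares were 16.7% higher and 25.0% lower after riebeckite fragments, against 15.3% and 23.1%, 8.33% higher and 16.7% lower after tremolite asbestos, against 10% and 13.9%, and 33.3% higher and 8.33% lower after tremolite fragments, against 12.5% and 15%. Txnip, which binds thioredoxin, averaged 59.9 ± 2.13 FPKM after riebeckite asbestos, 85.2 ± 2.76 after riebeckite fragments, 90.3 ± 6.46 after tremolite asbestos and 94.6 ± 2.65 after tremolite fragments, against 105.9 ± 8.25 FPKM in untreated cells. It was not called after tremolite fragments (-0.16, limma adjusted p = 0.0622), and its tremolite asbestos call (-0.23, limma adjusted p = 0.0130) ended without tremolite asbestos library 2 or untreated library 3. Gabarapl1, of the autophagy machinery, rose after riebeckite asbestos (0.60), riebeckite fragments (0.57) and tremolite fragments (0.33). The FoxO counts moved with single libraries. After riebeckite fragments 1 rose without riebeckite fragment library 3 or untreated library 2. After tremolite asbestos 0 to 2 rose and 0 to 2 fell, depending on riebeckite asbestos library 3, riebeckite fragment library 1, any tremolite asbestos library but the third, any tremolite fragment library or untreated library 2 or 3, and after tremolite fragments 2 rose without untreated library 2 and 2 fell without tremolite asbestos library 2 or 3 or untreated library 2.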
